A study of Mus musculus with 5 samples.

Results

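The vessel wall miRNAs miR-126-3p, miR-126-5p, miR-143 and miR-145 were followed through injury and repair of mouse tibialis anterior muscle. They are the assays whose name, without the species prefix and the assay number, is one of these names, and they make up 4 of the 217 miRNA assays (222 assays with the control RNAs). Their choice used no measured value, although it was made with earlier results of the same data known. All 4 members were far above the detection limit in every arm, so that none was lost to a filter.

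The muscles came from C57BL/6J males aged 4 to 6 months. The injured arms were taken 1, 3, 4, 7 or 21 days after 100 µl of 2.5 µM cardiotoxin, a cobra toxin that destroys muscle fibres, had been given in each lower leg, and the baseline arm was taken from mice that received no injection of any kind. The labels give 4 mice per time point, and each assay had 4 values per arm. The files do not say which mouse a value came from. If some values are repeats of the same RNA, the p-values measure technical spread only.

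miR-126 is made from an intron of Egfl7, a gene of endothelial cells, and is best known for holding endothelium responsive to VEGF by acting on Spred1 and Pik3r2. miR-143 and miR-145 are made from neighbouring hairpins that are usually described as a single transcript, are abundant in vascular smooth muscle and pericytes, and favour the contractile state of these cells. Vessels of a muscle injured with cardiotoxin are known to be disrupted and to regrow alongside the fibres.

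The miR-126 hairpin and its mature 3p arm are shown because the 2 arms of this single precursor are compared below. RefSeq (GRCm38.p6) places the hairpin at chr2:26591357-26591429 on the plus strand, inside the span of Egfl7 (chr2:26581083-26592682). In the hairpin the capitals mark the 3p arm, bases 46 to 67. In the mature sequence they mark the seed, bases 2 to 8, the part that pairs with target mRNAs.
Mir126a hairpin: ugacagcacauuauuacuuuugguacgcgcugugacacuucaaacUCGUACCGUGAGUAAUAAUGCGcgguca
miR-126-3p: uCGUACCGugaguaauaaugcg
RefSeq lists this arm as miR-126a-3p. Of 1679 mature mouse miRNAs in the sequence table, which is not complete, 1 carries this seed, which is miR-126-3p itself.

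The readout was TaqMan RT-PCR. Its threshold cycle, Ct, counts the rounds of amplification needed for detection, so a Ct lower by 1 stands for about 2 times more RNA, or 1 on the log2 scale. Changes are log2 and were scaled in 2 ways. The main scaling subtracted each sample's median shift over 205 miRNAs ("relative to the median miRNA"), and the other subtracted U6, the control RNA marked in the files. U6 itself moved, with a mean Ct of 14.8 at baseline, 12.5 on day 1, 13.2 on day 4, 13.6 on day 7 and 14.6 on day 21, which put the median of all tested miRNAs at -1.95, -1.17, -0.61, -0.03 and -0.12 relative to U6 on days 1, 3, 4, 7 and 21. A member is said to have risen or fallen only where limma's adjusted p was under 0.05 under both scalings. The striated muscle miRNA miR-133a had the lowest Ct of all 217 assays at baseline, at 9.35 ± 0.17 (SD, n = 4).

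At baseline miR-126-3p had a mean Ct of 12.9, rank 2 after miR-133a. miR-145 stood at 14.1, miR-126-5p at 15.7 and miR-143 at 17.3, and these were ranks 6, 12 and 20 of the 217 assays from the lowest Ct. Ranks of Ct also reflect how efficiently each assay amplifies, so levels of different members are not compared, only their changes.

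**Figure D1:**
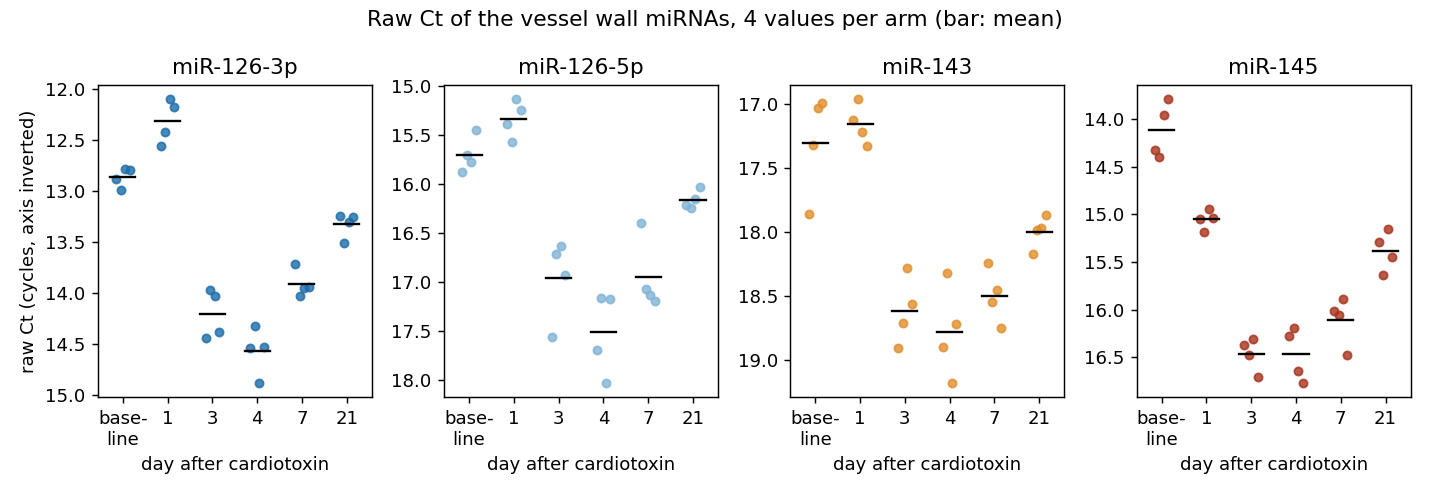
Raw Ct of each member (cycles, axis inverted so that higher points mean more RNA) at baseline and on days 1, 3, 4, 7 and 21, with 4 values per arm as points and their mean as a bar. Before any scaling, all 4 members lie below every baseline value on days 3, 4, 7 and 21, and on day 1 only miR-145 does. On day 21 the gap is small for miR-126-3p, miR-126-5p and miR-143. The share of all assays that do so was not counted, so this does not set the members apart. By a different measure, limma called 38.9%, 41.0%, 41.3%, 35.7% and 19.2% of all tested miRNAs lower under both scalings on days 1, 3, 4, 7 and 21.

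All 4 vessel wall miRNAs fell on days 3, 4 and 7, and all 4 were higher again on day 21 than on day 7. The endothelial miR-126 arms and the smooth muscle miR-143 followed almost the same course, at levels 3.91-fold to 6.77-fold lower than at baseline on those days. miR-145 fell on day 1 already, lay 8.33-fold to 9.82-fold lower on days 3, 4 and 7, and was the member called lower on day 21 under both scalings. Unscaled changes were smaller on days 3, 4 and 7. They were -1.345, -1.71 and -1.05 on these days for miR-126-3p and -1.26, -1.815 and -1.25 for miR-126-5p. For miR-143 they were -1.315, -1.48 and -1.20, and for miR-145 -2.35, -2.35 and -1.99. The differences between members were tested on their own, and none passed the exact test after adjustment (smallest adjusted p = 0.0612). With 4 values per arm this test allows no p under 0.0286 before adjustment over 30 tests. It could therefore hardly pass, and its result does not show that the members moved alike. Y1 is a control RNA with a mean Ct of 22.7 on day 1 and 21.2 on day 21, against 20.3 at baseline. Relative to Y1 all 4 members were called higher on day 1 (limma adjusted p from 1.25e-10 to 2.39e-05). These changes were 2.9 for miR-126-3p, 2.72 for miR-126-5p, 2.49 for miR-143 and 1.42 for miR-145. On day 21 they were 0.46, 0.46, 0.23 and -0.34 in the same order, none with a call.

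miR-126-3p, the guide arm of the endothelial hairpin, had Ct values of 12.56, 12.42, 12.10 and 12.18 on day 1, against 12.88, 12.99, 12.78 and 12.79 at baseline. The groups did not overlap, and before scaling the day 1 values lay below those of baseline, which is more RNA. It had Ct values of 14.44, 13.97, 14.03 and 14.38 on day 3, 14.54, 14.32, 14.88 and 14.53 on day 4 and 13.71, 14.03, 13.95 and 13.94 on day 7. Every one of these values was above the highest baseline value, which is less RNA. On day 21 they were 13.24, 13.51, 13.30 and 13.25, still just outside the baseline range.

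Relative to the median miRNA the day 1 change of miR-126-3p was 0.16 ± 0.13 (SE, 4 values per arm; limma adjusted p = 0.269), against -1.75 relative to U6 and 2.9 relative to Y1. Its direction on day 1 therefore rested on the scaling. The miRNA then fell, with changes of -2.05 ± 0.13 on day 3, -2.65 ± 0.13 on day 4 and -2.24 ± 0.13 on day 7, that is to levels 4.15-fold, 6.28-fold and 4.72-fold lower than at baseline. Limma's adjusted p was 4.87e-12, 7.14e-14 and 1.16e-12, and relative to U6 the changes were -3.18, -3.33 and -2.33. On day 21 the change was -0.61 ± 0.13 (adjusted p = 0.000341), but -0.74 relative to U6 with adjusted p = 0.157, so no fall is called. With quantile scaling, which gives each rank the same value in every sample, the day 3, 4 and 7 changes of this high-ranking miRNA were -0.0706, -0.14 and -0.0706, none with a call.

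miR-126-5p, the opposite arm, which in endothelial cells is known to act on Dlk1, had Ct values of 15.38, 15.57, 15.13 and 15.24 on day 1, against 15.87, 15.70, 15.77 and 15.45 at baseline. These groups overlapped. It stood at 17.56, 16.71, 16.63 and 16.93 on day 3, 17.69, 17.16, 18.03 and 17.17 on day 4 and 16.40, 17.07, 17.13 and 17.19 on day 7. All of them were above the baseline range, although the first value of day 7 lay well below the other 3. On day 21 the values of 16.21, 16.24, 16.15 and 16.03 lay close together and again just outside the baseline range.

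The changes of miR-126-5p were -0.02 ± 0.20 on day 1 (limma adjusted p = 0.937, and -1.93 relative to U6), and it fell on days 3, 4 and 7, with changes of -1.97 ± 0.20, -2.76 ± 0.20 and -2.44 ± 0.20. These falls were 3.91-fold, 6.77-fold and 5.44-fold, with adjusted p = 5.46e-09, 2.44e-11 and 1.82e-10, and relative to U6 they were -3.09, -3.43 and -2.54. Relative to Y1 the day 3 change was -0.65, without a call. The day 21 change of -0.61 ± 0.20 (adjusted p = 0.00886) was -0.73 relative to U6, with adjusted p = 0.139.

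miR-143, of smooth muscle, had Ct values of 17.12, 16.96, 17.22 and 17.33 on day 1, against 17.86, 17.32, 17.03 and 16.99 at baseline, where the first value stood apart from the others. The groups overlapped. The values were 18.91, 18.71, 18.28 and 18.56 on day 3, 18.90, 18.32, 19.18 and 18.72 on day 4 and 18.24, 18.55, 18.45 and 18.75 on day 7, all above the baseline range. On day 21 they were 18.17, 17.98, 17.97 and 17.87, the lowest of which lay just above the highest baseline value.

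The day 1 change of miR-143 was -0.24 ± 0.17 relative to the median miRNA (limma adjusted p = 0.198) and -2.15 relative to U6. It fell, with changes of -2.02 ± 0.17 on day 3, -2.42 ± 0.17 on day 4 and -2.39 ± 0.17 on day 7, or 4.06-fold, 5.37-fold and 5.24-fold. Limma's adjusted p was 4.39e-10, 2.41e-11 and 2.98e-11, and relative to U6 the changes were -3.15, -3.10 and -2.48. Relative to Y1 the day 3 change was -0.70, without a call. On day 21 it stood at -0.85 ± 0.17 (adjusted p = 0.000178), and at -0.97 relative to U6 with adjusted p = 0.085.

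miR-145, which acts on Klf4 and Klf5 and is the more studied of the smooth muscle pair, had Ct values of 15.05, 15.18, 14.94 and 15.04 on day 1, against 14.32, 14.40, 13.96 and 13.79 at baseline. The groups did not overlap, and all day 1 values were the higher Ct, which is less RNA. It had Ct values of 16.37, 16.48, 16.31 and 16.71 on day 3, 16.28, 16.19, 16.64 and 16.77 on day 4 and 16.01, 16.06, 15.89 and 16.48 on day 7. These lay well above every baseline value. On day 21 the values of 15.29, 15.64, 15.15 and 15.45 were still clear of the baseline range.

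miR-145 fell by 1.32 ± 0.16 on day 1 (2.50-fold; limma adjusted p = 1.07e-07), with -3.23 relative to U6. Relative to Y1, however, it was called higher on day 1, at 1.42 (adjusted p = 2.39e-05). It fell further from baseline on days 3, 4 and 7, with changes of -3.06 ± 0.16, -3.30 ± 0.16 and -3.19 ± 0.16, or 8.33-fold, 9.82-fold and 9.09-fold. Limma's adjusted p was 9.59e-14, 3.60e-14 and 6.45e-14, and relative to U6 the changes were -4.18, -3.97 and -3.28. On day 21 it was still down, having fallen by 1.41 ± 0.16 (2.66-fold; adjusted p = 6.09e-08), and by 1.54 relative to U6 (adjusted p = 0.0102).

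**Figure D2:**
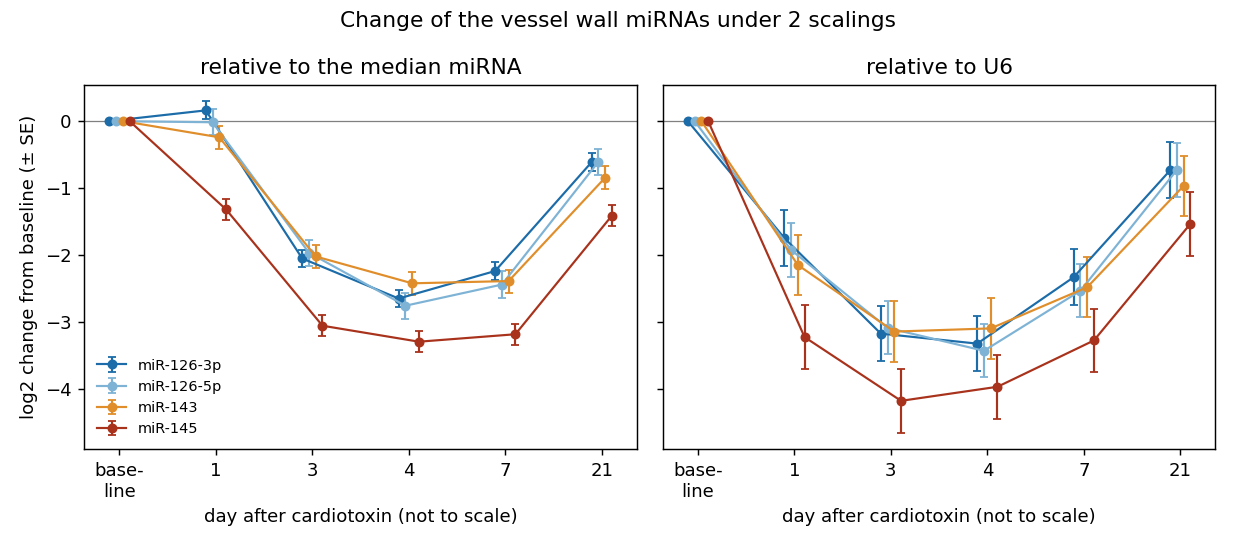
Log2 change of each member from baseline (± SE of limma's fit, 4 values per arm) relative to the median miRNA on the left and to U6 on the right, against the day after cardiotoxin (not to scale). miR-145 lies under the other 3 members on every day under both scalings; the day 1 position of those 3 moves from near 0 on the left to about -2 on the right, and relative to Y1, not drawn, all 4 lay above baseline on day 1.

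Counted over the members, 1 of 4 fell on day 1, 4 of 4 on days 3, 4 and 7, and 1 of 4 on day 21. Over all miRNAs tested, the share called lower under both scalings was 38.9% on day 1, 41.0% on day 3, 41.3% on day 4, 35.7% on day 7 and 19.2% on day 21. Relative to the median miRNA alone, 4 of 4 members and 37.6% of all tested miRNAs were lower on day 21. Falls were thus common in the whole panel, and the call alone does not set the members apart. Their size placed them low in it: on day 4, 18 of 213 tested miRNAs had a lower change than miR-126-5p, 19 than miR-126-3p, 25 than miR-143 and 10 than miR-145. On day 7 the same counts were 19, 24, 21 and 6, and on day 21 they were 64, 63, 47 and 22.

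In bulk muscle, fewer vessel cells and less of the miRNA in each vessel cell cannot be told apart. Markers of other cells moved on the same days, although those of blood did not move together. miR-223, of neutrophils and other myeloid cells, had a mean Ct of 11.8 on day 1, 14.3 on day 3, 15.6 on day 4 and 16.8 on day 7, against 18.7 at baseline, whereas miR-150 of lymphocytes and miR-451 of red cells were not called on day 1 and fell on day 4. The fibre miR-1 had a mean Ct of 17.4 on day 1, 18.4 on day 3, 16.7 on day 4 and 15.0 on day 7, against 12.9 at baseline. Their part in the members' changes was not tested.

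**Figure D3:**
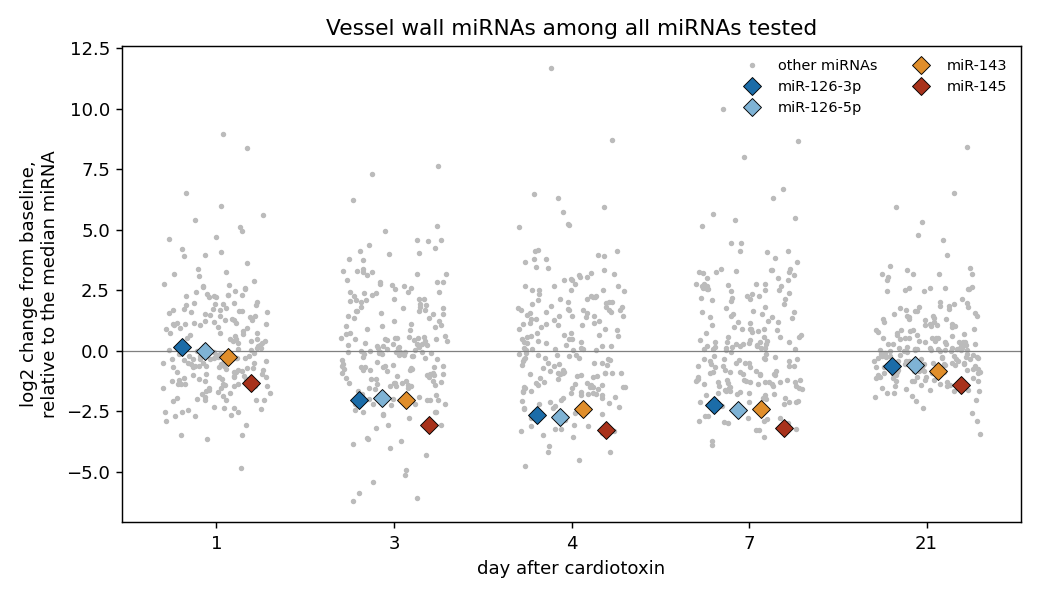
Log2 change from baseline relative to the median miRNA for each miRNA tested on a day (grey points, spread sideways at random) with the 4 members as diamonds. The members sit near the middle of the panel on day 1, apart from miR-145, and in the lower part of the panel on days 3, 4 and 7; relative to U6 the day 1 diamonds would lie at -1.75 to -3.23 and relative to Y1 at 1.42 to 2.9.

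Between successive time points the members moved mostly in the same direction. From day 1 to day 3 both miR-126 arms fell, miR-126-3p by 2.21 ± 0.13 (limma adjusted p = 6.51e-12, and -1.43 relative to U6) and miR-126-5p by 1.95 ± 0.20 (adjusted p = 1.98e-08, and -1.17 relative to U6). miR-143 and miR-145 changed by -1.78 ± 0.17 and -1.74 ± 0.16, but relative to U6 by -0.995 and -0.95 with adjusted p = 0.0708 and adjusted p = 0.105. The 2 called members compare with 13.1% of all tested miRNAs called lower in this interval. Relative to U6, miR-126-5p lost its call in 2 of 8 refits that left out a value (without day 1 value 1 and without day 3 value 3; highest adjusted p = 0.0683).

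From day 3 to day 4 no member passed under both scalings, against 1.85% of all miRNAs called lower. Relative to the median miRNA, miR-126-3p changed by -0.60 ± 0.13 and miR-126-5p by -0.79 ± 0.20, miR-143 by -0.40 ± 0.17 and miR-145 by -0.24 ± 0.16. From day 4 to day 7 again none passed, against 16.1% called higher, and the changes ran from 0.03 for miR-143 to 0.41 for miR-126-3p.

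From day 7 to day 21 all 4 members rose, against 19.4% of all tested miRNAs called higher. miR-126-3p rose by 1.63 ± 0.13 (3.09-fold; limma adjusted p = 2.21e-09), miR-126-5p by 1.83 ± 0.20 (3.56-fold; 9.17e-08), miR-143 by 1.54 ± 0.17 (2.92-fold; 1.54e-07) and miR-145 by 1.77 ± 0.16 (3.41-fold; 5.15e-09). Relative to U6 the rises were 1.60, 1.81, 1.52 and 1.74. Unscaled mean Ct moved less, from 13.9 to 13.3 for miR-126-3p, 16.9 to 16.2 for miR-126-5p, 18.5 to 18.0 for miR-143 and 16.1 to 15.4 for miR-145. The median shift of the main scaling went from -1.19 to -0.15 cycles over this interval. The other control RNAs were used only for changes from baseline, so these rises were not fitted relative to them. Of the 216 miRNAs tested in this interval, 13 had a higher change than miR-126-3p, 9 than miR-126-5p, 16 than miR-143 and 11 than miR-145. Without day 7 value 4 the U6 result of miR-143 had an adjusted p = 0.0593.

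Ordered by level relative to the median miRNA, miR-126-5p and miR-143 ran from high to low as baseline, day 1, day 21, day 3, day 7 and day 4, and miR-126-3p did so with day 1 at the top. For these 3 members day 1 and baseline did not differ beyond their spread (limma adjusted p = 0.937, 0.198 and 0.269), while day 21 lay between them and the low days and differed from each neighbour. Among the low days, day 3 and day 7 differed for miR-126-5p (adjusted p = 0.0366, a call that 6 of the 8 refits without a value lost), but not for miR-126-3p (0.214) or miR-143 (0.0622). Day 7 and day 4 differed for miR-126-3p (0.0131), but not for miR-126-5p (0.193) or miR-143 (0.883). None of the differences among days 3, 4 and 7 passed relative to U6.

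miR-145 was high at baseline only, and its order went on with day 1, day 21, day 3, day 7 and day 4. Its day 1 and day 21 levels were 0.09 apart (limma adjusted p = 0.571). Day 21 lay above day 3 by 1.64 (adjusted p = 2.91e-09), while day 3 and day 7 did not differ (0.471), nor did day 7 and day 4 (0.571). Relative to U6, day 21 came next after baseline for all 4 members and lay above day 1, by 1.69 for miR-145 (adjusted p = 0.00198), 1.01 for miR-126-3p (0.0283), 1.2 for miR-126-5p (0.00771) and 1.18 for miR-143 (0.0188). Relative to U6, 62.9% of all tested miRNAs were called higher on day 21 than on day 1, and 3 of 8 refits without a value lost the call of miR-126-3p and 3 of 8 that of miR-143. The order of days 1 and 21 thus turned with the scaling.

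Differences between members need no control RNA, since whatever scales a sample cancels where both values come from that sample. Values were paired by the order in which they are listed, and whether values of the same order share a sample is not given. In all 6 pairs the within-arm SD of the difference was lower than for independent values. It was 0.21 against 0.36 for miR-126-3p and miR-126-5p, and 0.27 against 0.36 for miR-143 and miR-145. For miR-126-5p and miR-145 it was 0.34 against 0.38, and whether values of the same order vary together was not tested. For 6 pairs of members and 5 time points, 30 differences were compared with baseline by a two-sided exact permutation test of 4 against 4 values. The smallest p this design allows is 0.0286, and p-values were adjusted over the 30 tests.

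No change in the ratio of the miR-126 arms was detected. Their log2 difference (miR-126-3p minus miR-126-5p, from Ct) was 2.82, 3.15, 3.03 and 3.06 on day 1, against 2.99, 2.71, 2.99 and 2.66 at baseline, and 3.15, 2.84, 3.15 and 2.64 on day 4. Day and baseline values overlapped on every day. The change of the ratio ran from -0.09 on day 3 to 0.20 on day 7, with exact permutation p between 0.171 and 1. The exact permutation intervals at 97.1% confidence reached from -0.44 to 0.59 at their widest ends, on days 3 and 7, and shifts inside these bounds could not be detected.

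The neighbours miR-143 and miR-145, whose hairpins lie on chromosome 18 with 1301 bases between them, moved apart, although not past the adjusted threshold of the exact test. The log2 difference miR-143 minus miR-145 was -2.07, -1.78, -2.28 and -2.29 on day 1, against -3.54, -2.92, -3.07 and -3.20 at baseline. It was -2.54, -2.23, -1.97 and -1.85 on day 3, -2.62, -2.13, -2.54 and -1.95 on day 4 and -2.23, -2.49, -2.56 and -2.27 on day 7. On each of these days every value lay above the highest baseline value of -2.92, which is less miR-145 for the same miR-143. On day 21 the values were -2.88, -2.34, -2.82 and -2.42, the lowest of which was just above that baseline value.

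The shift was 1.08 on day 1, 1.04 on day 3, 0.87 on day 4, 0.80 on day 7 and 0.57 on day 21 in favour of miR-143, or 2.11-fold, 2.05-fold, 1.83-fold, 1.74-fold and 1.48-fold. Each had the smallest exact permutation p this design allows, 0.0286, which is an adjusted p = 0.0612 over the 30 tests and so did not pass. The intervals (97.1% confidence) ran from 0.63 to 1.76 on day 1 and from 0.04 to 1.2 on day 21. In the alternative that sets limma's changes of both assays against each other without pairing, the adjusted p was 0.000904, 0.0011, 0.00387, 0.00766 and 0.05 in the order of the days, the last of which just missed the threshold. The day 1 and day 21 shifts share the baseline values, and whether they differ was not tested.

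The differences between the miR-126 arms and miR-145 shifted in the same direction, also without passing the exact test after adjustment. The difference miR-126-3p minus miR-145 was 1.48 higher on day 1 than at baseline, 1.01 higher on day 3, 0.65 on day 4, 0.95 on day 7 and 0.80 on day 21, each with exact permutation p = 0.0286 (adjusted p = 0.0612, and 1.27e-05 to 0.012 without pairing). The difference miR-126-5p minus miR-145 was higher by 1.3, 1.09, 0.54, 0.74 and 0.81, with overlap on day 4 (exact permutation p = 0.0857). Of the 15 comparisons that involve miR-145, 14 lay apart from baseline, while all 15 comparisons without miR-145 overlapped with baseline. These comparisons share the same baseline values, and the 15 with miR-145 share its values too, so they are not independent. None of them passed the exact test after adjustment. How often other pairs of miRNAs lie apart from baseline was not counted.

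Between miR-143 and miR-126-3p, which comes from another chromosome, no difference in response was detected. The difference miR-126-3p minus miR-143 changed by 0.40 on day 1, -0.03 on day 3, -0.23 on day 4, 0.15 on day 7 and 0.23 on day 21, with exact permutation p between 0.171 and 0.857. The intervals at 97.1% confidence lay between -0.98 and 0.95, which leaves room for differences of that size.

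**Figure D4:**
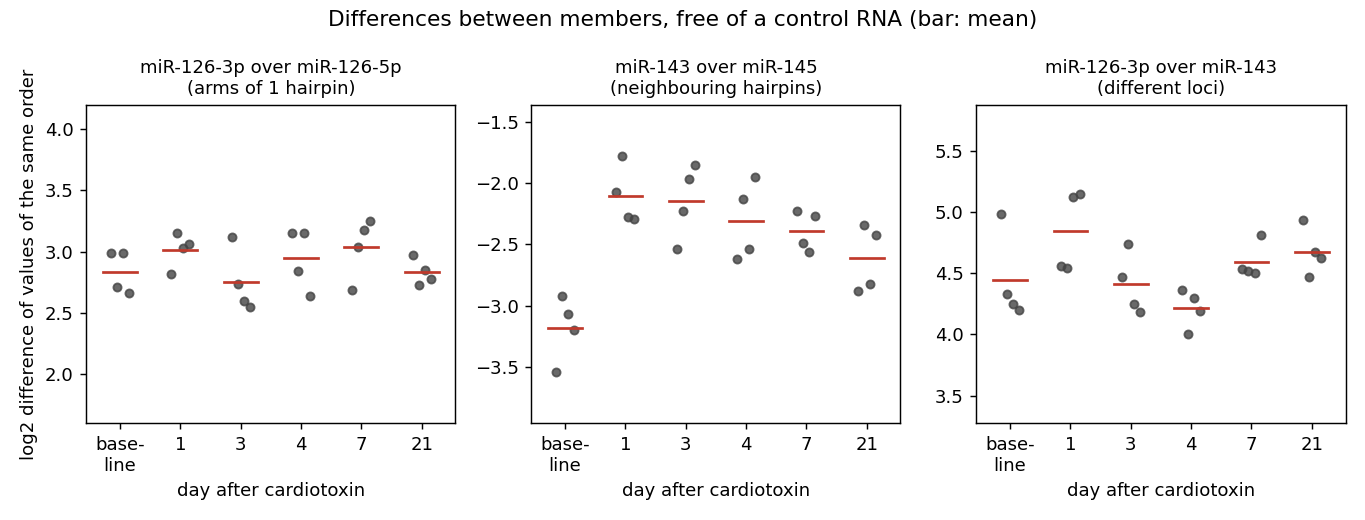
Log2 difference between 2 members in values of the same order (4 points per arm, bar for the mean), at baseline and on days 1, 3, 4, 7 and 21; each panel spans the same height on its axis. The arms of miR-126 and the pair miR-126-3p and miR-143 overlap with baseline on every day. The pair miR-143 over miR-145 lies above all baseline values on every day. No difference passed the exact test after adjustment, and how often other pairs of miRNAs lie apart was not counted.

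The likeness of each member to the other 209 miRNAs detected in all 6 arms was measured as the root mean square difference of the 5 changes from baseline relative to the median miRNA, with Pearson's r over the 6 arm means beside it, as a description. The closest miRNA to miR-126-3p was miR-126-5p (root mean square difference 0.135, r = 0.996), and the third closest was miR-143 (0.241, r = 0.988). For miR-143 the closest were miR-126-5p (0.212) and miR-126-3p, whereas its cluster neighbour miR-145 came in place 31 (0.889, r = 0.967).

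Among the miRNAs that are not members, those closest to miR-126-3p were miR-194 (0.198, r = 0.991), miR-384-5p (0.317), miR-26b (0.465), miR-204 (0.467) and miR-150 (0.512). The same first 4 came closest to miR-126-5p, followed by miR-30d, and miR-26b (0.25), miR-194, miR-30d, miR-384-5p and miR-204 to miR-143. miR-194 changed by 0.12, -2.05, -2.47, -1.94 and -0.88 on days 1, 3, 4, 7 and 21, close to miR-126-3p on each day.

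The closest to miR-145 was miR-30e (0.162, r = 0.996), which changed by -1.36, -3.09, -3.58, -3.24 and -1.20 on the same days. miR-101a (0.346), miR-30a (0.365), miR-30b (0.374) and miR-345-5p (0.445) came after it. Several of these profiles share a seed, and the RefSeq sequences are shown for that reason, with the seed in capitals. The assays miR-30a and miR-30e carry no arm in their name, and the 5p arm is given.
miR-30e-5p: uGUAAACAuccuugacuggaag
miR-30a-5p: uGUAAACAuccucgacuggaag
miR-384-5p: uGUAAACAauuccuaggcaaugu
miR-345-5p: gCUGACCCcuaguccagugcuu
The seed of miR-384-5p, close to the miR-126 arms and miR-143, is that of miR-30a-5p and miR-30e-5p, close to miR-145, and miR-345-5p has another. This seed is found in at least 4 mature miRNAs, those among the 1679 of the incomplete table. None of these seeds is that of miR-126-3p.

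**Figure D5:**
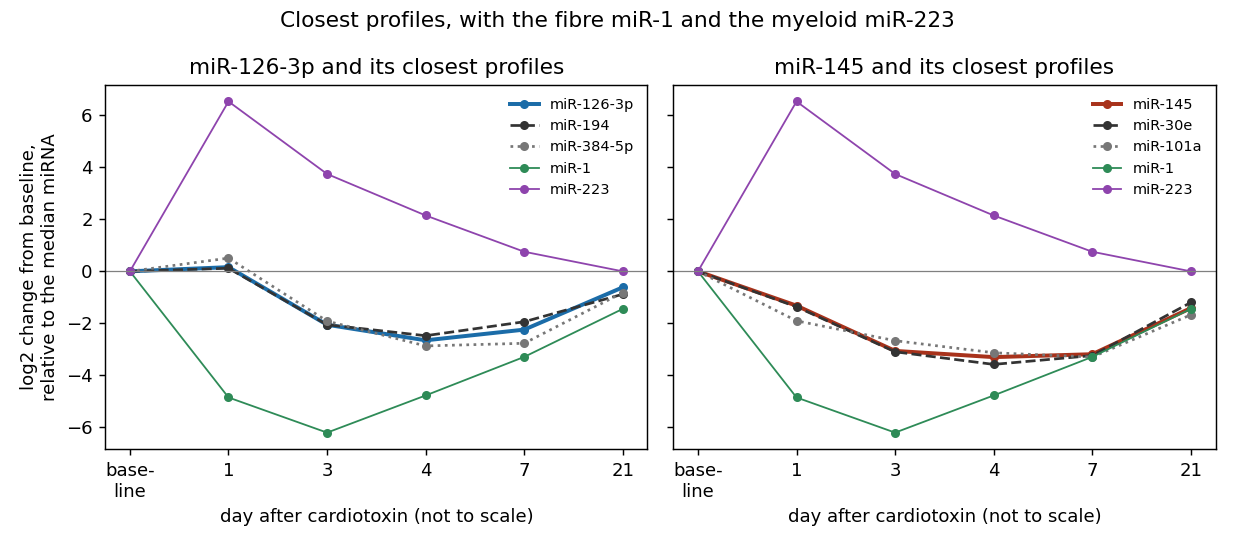
Log2 change from baseline relative to the median miRNA by day (not to scale) for miR-126-3p with miR-194 and miR-384-5p on the left and miR-145 with miR-30e and miR-101a on the right, each with miR-1 of myofibres and miR-223 of myeloid cells. miR-194 and miR-30e lie almost on the lines of the members, miR-1 has its lowest point on day 3 at -6.20, and miR-223 its highest on day 1 at 6.53.

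Other miRNAs known from vessel cells did not share 1 course. Of 13 measured endothelial and angiogenic miRNAs, 4 were lower and 0 higher on day 1 under both scalings, 6 and 0 on day 3, 7 and 1 on day 4, 6 and 2 on day 7, and 1 and 2 on day 21. Over all tested miRNAs the shares called lower were those given above (38.9%, 41.0%, 41.3%, 35.7% and 19.2%), and the shares called higher were 9.00%, 19.3%, 25.4%, 31.5% and 22.1%. The median change of the list was 0.21, -0.07, -0.34, -0.56 and -0.15, beside -0.04, -0.05, 0.06, 0.07 and -0.00 over all tested miRNAs. Relative to U6 the list's median turned negative on day 1, at -1.70, beside -1.95 over all tested miRNAs. miR-23b, of a cluster that is abundant in endothelium, fell on days 1, 3, 4 and 7, with changes of -1.38, -1.98, -2.02 and -1.75, and stood at -0.25 on day 21. miR-10b, which takes part in sprouting in zebrafish, changed by -0.35 on day 1 and fell on days 3, 4 and 7, with changes of -1.47, -1.66 and -1.34, and with -0.01 on day 21.

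miR-221, which holds back Kit in endothelial cells and favours growth of smooth muscle, was higher relative to the median miRNA by 1.09, 1.92 and 1.22 on days 1, 3 and 4, but by -0.82, 0.79 and 0.54 relative to U6, so that no rise is called. miR-296-5p, linked to growth factor receptors in angiogenic endothelium, fell by 1.18 on day 1 and rose by 2.69, 3.32 and 3.40 on days 4, 7 and 21.

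Of 12 measured miRNAs linked to smooth muscle and pericytes, 4 were lower and 0 higher on day 1, 6 and 1 on day 3, 7 and 1 on day 4, 6 and 2 on day 7, and 1 and 0 on day 21, against the same shares over all tested miRNAs. The medians were -0.16, -0.46, -0.93, -0.71 and -0.24, beside -0.04, -0.05, 0.06, 0.07 and -0.00 over all tested miRNAs, and relative to U6 they were -2.07, -1.58, -1.61, -0.80 and -0.36, beside -1.95, -1.17, -0.61, -0.03 and -0.12. This list shares miR-24, miR-221 and miR-222 with the endothelial one. miR-21, raised in injured vessel walls and in fibroblasts, rose by 2.83, 2.21 and 1.64 on days 3, 4 and 7. On those days miR-204 fell, with changes of -2.47, -3.09 and -2.92, as did miR-26a with -2.78, -2.80 and -2.29 and miR-100 with -2.55, -2.40 and -2.80. On day 1 miR-26a and miR-100 had already fallen, with changes of -1.77 and -2.68, as miR-145 had, whereas miR-204 stood at -0.34.

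Beside these, 5 of 5 tested myofibre miRNAs fell on day 1, 4 of 4 on day 3, 5 of 5 on day 4 and 4 of 5 on days 7 and 21. Of all tested miRNAs, 38.9%, 41.0%, 41.3%, 35.7% and 19.2% were called lower on days 1, 3, 4, 7 and 21. Their median change was -3.06, -5.98, -3.95, -1.77 and -1.27, beside -0.04, -0.05, 0.06, 0.07 and -0.00 over all tested miRNAs. Relative to U6 it was -4.965, -7.10, -4.62, -1.86 and -1.39, beside -1.95, -1.17, -0.61, -0.03 and -0.12. The fibre list was thus lowest on day 3, where 4 of its miRNAs were tested against 5 on the other days. With the median scaling the members' means were lowest on day 4, whereas with U6 both miR-143 and miR-145 were lowest on day 3. No member's change from day 3 to day 4 passed under both scalings. Whether the lowest day of the members differs from that of the fibre list was not tested. Of 6 blood cell miRNAs, 3 rose on days 1, 3 and 4 and 2 on day 7, where 9.00%, 19.3%, 25.4% and 31.5% of all tested miRNAs were called higher. In the same list 0 fell on day 1, 1 on day 3 and 2 on days 4 and 7, against the shares called lower given above. miR-150 of lymphocytes changed by 0.42 on day 1 and fell on days 3, 4 and 7, with changes of -1.31, -1.84 and -2.10. miR-451 of red cells, which marks the blood held in the sample, was at 1.58 on day 1 (-0.33 relative to U6) and fell on days 4 and 7, with changes of -0.92 and -2.09, and with -0.75 on day 21. Its mean Ct was 18.3 on day 1 and 21.2 on day 7, against 20.3 ± 0.97 at baseline (SD, n = 4). Whether the blood content of the samples had a part in the members' values was not tested.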

How the data were processed

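The series measured 217 miRNAs and 5 control RNAs by TaqMan RT-PCR (40 cycles, 7900HT instrument, RNA with an integrity number above 9), per the labels' protocols. The deposited files give raw, unnormalized Ct values. How the threshold was set is not given in the sources used here. The same baseline values stand in all 5 files and entered once. Depth has no counterpart here, and the number of values limits the precision.

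Members and lists were chosen with earlier results of these data known. Values were minus Ct, less each sample's median shift from the baseline means over the 205 miRNAs under Ct 35 in every sample. A Ct of 40, the final cycle, was treated as missing. A miRNA was tested where at least 3 of 4 values were under Ct 35 in both arms. All 6 arms entered a fit with limma 3.58.1 in R 4.3.3 (lmFit, eBayes, 15 contrasts), with Benjamini-Hochberg adjustment over all miRNAs tested in a contrast, two-sided, threshold 0.05. It was tested on simulated data. Named miRNAs were the members, up to 4 of each list with the largest change, the 5 closest profiles, the markers miR-1, miR-223 and miR-451, and control RNAs. miR-133a was named in the opening as the assay with the lowest Ct. miR-23a, miR-206, miR-208b and miR-144 of the lists were not analysed here. Sequences are RefSeq's (GRCm38.p6), of which 1 member's mature form was used.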

Additional observations from a re-analysis of the deposited data

Results flagged for a closer look

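The 84 groups of 4 values were each member in each arm, unscaled and relative to the median miRNA, and each pair of members in each arm. Among them 5 held a value far from the others by Dixon's test at the 95% level, where chance gives about 5% of groups. Of those flagged, 4 were differences of a pair and 1 was a single assay. The gap of the outlying value over the range of the group was 0.848 for the raw Ct of miR-126-5p on day 7, whose first value of 16.40 lay under 17.07, 17.13 and 17.19. It was 0.833 for the difference of miR-126-3p and miR-143 at baseline (4.98 against 4.2 to 4.33) and 0.903 for the same difference on day 7 (4.81 against 4.5 to 4.53). It was 0.85 for the difference of miR-126-5p and miR-143 on day 4 and 0.897 for that of miR-126-5p and miR-145 on day 3. In 160 refits that each left out a value, 0 changes from baseline relative to the median miRNA lost or gained a call.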

How the results depend on the processing

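The calls of all 20 changes from baseline were the same relative to snoRNA202 and U87, with limma-trend, with only the 2 arms in the fit, and with a Ct limit of 32 or none. The uncalled day 1 changes did turn direction: miR-126-5p stood at 0.12 relative to snoRNA202, 0.0056 with only the 2 arms and 0.37 unscaled, miR-126-3p at -0.29 relative to U87 and -0.15 with quantile scaling, and miR-143 at 0.14 unscaled. In 160 refits that left out a value, 0 of these calls changed, and 3 refits turned the direction of miR-126-5p on day 1. Relative to U6, 1 of 160 refits changed a call: miR-143 on day 21 gained one without baseline value 1, in the same direction. For the changes between other arms 9 of 320 refits changed a call (20 of 320 relative to U6), with miR-126-5p at -0.68 to -0.33 from day 3 to day 7, and miR-143 at -0.56 to -0.33 from day 3 to day 4 and -0.47 to -0.27 from day 3 to day 7. Relative to U6, day 1 stood at -1.75 for miR-126-3p (turned), -1.93 for miR-126-5p and -2.15 for miR-143 (both now called), and the day 21 calls of miR-126-3p (-0.74), miR-126-5p (-0.73) and miR-143 (-0.97) were lost. U6 also ended the calls of miR-143 (-0.995) and miR-145 (-0.95) from day 1 to day 3, and from day 1 to day 4 (-0.95 and -0.74). From day 1 to day 7 it ended those of all 4 members: miR-126-3p (-0.585), miR-126-5p (-0.61), miR-143 (-0.33) and miR-145 (-0.05). It ended those of both miR-126 arms from day 3 to day 4 (-0.15 and -0.34) and of miR-126-3p from day 4 to day 7 (0.99). U6 turned miR-126-5p from day 3 to day 7 (0.56) and all 4 members from day 1 to day 21 (1.01, 1.2, 1.18 and 1.69). snoRNA135 put day 1 at -1.19, -1.37 and -1.6 for miR-126-3p, miR-126-5p and miR-143. Y1 put day 1 at 2.9, 2.72, 2.49 and 1.42, all called higher. It put day 3 of miR-126-5p and miR-143 at -0.65 and -0.70 without a call, and day 21 at 0.46, 0.46, 0.23 and -0.34, none with a call. With the median Ct, miR-143 was called on day 1 (-0.39), as with quantile scaling (-0.67). Quantile scaling gives each rank the same value in every sample, and miR-126-3p held ranks 1 to 3 in every arm. It put miR-126-3p at -0.0706, -0.14, -0.0706 and 0.0703 on days 3, 4, 7 and 21, miR-126-5p at 0.14 and miR-145 at -0.28 on day 21, none with a call. Unscaled, miR-126-3p was called higher on day 1 (0.55) and miR-126-5p lost its day 21 call (-0.46). Without pairing, 13 differences between members passed: miR-126-3p over miR-145 (1.48, 1.01, 0.65, 0.95 and 0.8), miR-126-5p over miR-145 on days 1, 3, 7 and 21 (1.3, 1.09, 0.74 and 0.81) and miR-143 over miR-145 on days 1 to 7 (1.08, 1.04, 0.87 and 0.80). The cause of these shifts was not tested. No paired analysis was possible because the labels give no replicate numbers that would pair values of different arms, and members were paired only within an arm, by list order. With 4 values per arm, the smallest exact p of 0.0286 limits the differences between members.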
